A study of Mus musculus with 8 samples.

Results

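The 10 genes described here encode the enzymes that split glycine and that pass its carbon, and that of serine and of methylated glycines, to folate. They are the 4 parts of the glycine cleavage system (Gldc, Amt, Gcsh and Dld), the serine hydroxymethyltransferases Shmt1 and Shmt2, the dehydrogenases Sardh and Dmgdh, and the folate enzymes Mthfd1 and Aldh1l1. They make up 10 of the 25239 gene symbols counted in each liver, and all 10 were among the 12977 genes with enough reads to be tested. The group was selected on these same livers, because Gldc stood out among all genes when Smo-KO and control livers were compared. The differences between the groups in these 10 genes are therefore given as a description. Where a test across all genes is mentioned for them, it is the contrast they were chosen on and no evidence of its own.

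Bulk RNA-Seq was performed on whole liver of 8 adult male mice, 4 in each of 2 groups. All mice carried floxed Smo (Smo tm2Amc/J, Smo fl/fl) on a C57Bl6/J background and were fed for 6 weeks the CDA-HFD, a choline-deficient, L-amino acid-defined high-fat diet that induces steatohepatitis. All received an AAV8 vector by tail vein 1 week before sacrifice, with the hepatocyte promoter TBG driving luciferase in control mice (Smo-Luc) and Cre recombinase in Smo-KO mice (Smo-Cre). The comparison addresses how the loss of Smo, the membrane protein that passes on the Hedgehog signal, from hepatocytes of adult mice with steatohepatitis affected liver RNA. No group received a standard diet, so the groups differ in the vector and not in the diet, and the vector is active in hepatocytes while the RNA came from every cell type of the liver. In such bulk samples, fewer cells of a type and less RNA per cell cannot be told apart.

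Glycine cleavage takes place in the mitochondrial matrix and is highly active in liver. Gldc removes the carboxyl group of glycine as carbon dioxide and hands the remaining aminomethyl group to the lipoyl arm of Gcsh, Amt transfers its carbon to tetrahydrofolate and releases ammonia, and Dld reoxidizes the lipoyl arm. The folate-bound carbon formed in this way is used for making serine from glycine, purines, thymidylate and methionine, or is burned to carbon dioxide.

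Gldc lies on mouse chromosome 19 (GRCm38, chr19:30098447-30175429, minus strand), Amt on chromosome 9 (chr9:108296853-108302302, plus strand) and Gcsh on chromosome 8 (chr8:116981810-116993537, minus strand). Their upstream sequences are shown because these genes encode 3 proteins that work as 1 system while the data below differ between them. Each stretch ends at the start site of the RefSeq gene or, where GENCODE places the gene further upstream, just before it, and capitals mark matches to CCAAT on either strand (ATTGG on the other strand). The sequences are from RefSeq, build GRCm38.p6, on the gene's own strand, 5′ to 3′, at chr19:30175442-30175691, chr9:108296655-108296852 and chr8:116993538-116993748.
Gldc: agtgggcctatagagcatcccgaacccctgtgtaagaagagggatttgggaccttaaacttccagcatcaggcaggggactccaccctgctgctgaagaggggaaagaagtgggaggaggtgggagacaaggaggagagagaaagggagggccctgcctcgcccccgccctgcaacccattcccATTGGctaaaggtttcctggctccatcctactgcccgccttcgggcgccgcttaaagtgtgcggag
Amt: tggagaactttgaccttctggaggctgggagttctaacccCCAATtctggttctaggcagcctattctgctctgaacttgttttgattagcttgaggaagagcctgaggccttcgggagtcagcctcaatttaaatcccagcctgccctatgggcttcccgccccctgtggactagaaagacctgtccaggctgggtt
Gcsh: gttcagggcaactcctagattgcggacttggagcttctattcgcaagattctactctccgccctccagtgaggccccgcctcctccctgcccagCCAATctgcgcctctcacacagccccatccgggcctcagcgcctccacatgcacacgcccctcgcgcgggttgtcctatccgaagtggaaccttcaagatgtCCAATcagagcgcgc

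Promoter windows of 300 bases, 250 before the start site and 50 after it, were found for all 10 genes. CCAAT was present on either strand in 7 of the 10 windows (Gldc, Amt, Gcsh, Dld, Shmt1, Mthfd1 and Aldh1l1) and in 37.4% of 32851 mouse promoter windows. GACCACCCA, the core of the site bound by the Gli factors of the Hedgehog pathway, was found in 0 of the 10 and in 0.253% of all windows. TATAAA was found in 0 of the 10 and in 13.6% of all, and TGATGNAA, a form of the composite site of C/EBP and ATF factors, in 0 of the 10 and in 3.97% of all. No match overlapped another. The matches describe the windows only, and nothing on the binding of a factor follows from a match or from its absence. In the 250 bases before the start, the Gcsh promoter held 18 CG dinucleotides, that of Gldc 8 and that of Amt 3, against a median of 6 over all promoters.

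The number of reads counted on genes was 9177277, 9394970, 9891102 and 9999732 in control livers 1 to 4, and 9543675, 9367795, 8203299 and 9445427 in Smo-KO livers 1 to 4. Levels are given as CPM (counts-per-million), the counts of a gene scaled to the size of its library. Smo, the floxed gene, was at 8.17, 8.49, 8.74 and 8.21 CPM in control livers and at 5.67, 3.93, 4.27 and 4.37 CPM in Smo-KO livers, a log2 fold change of -0.88. Every Smo-KO liver was below every control liver. Smo-KO livers kept between 46.7% and 67.5% of the mean control level, in RNA that also comes from cells which the vector does not target.

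Gldc, the glycine decarboxylase of the system, differed most between the groups among the 10 genes. It was at 114.8, 125.0, 130.7 and 111.5 CPM in control livers 1 to 4 and at 71.1, 51.3, 34.2 and 65.7 CPM in Smo-KO livers 1 to 4. Every Smo-KO liver was below every control liver, and Smo-KO 3 was the lowest. The mean was 120.5 ± 8.90 CPM in control and 55.6 ± 16.6 CPM in Smo-KO livers (SD, n = 4 each), so that Smo-KO livers held on average 46.1% of the control level. The log2 fold change was -1.11 ± 0.18 (standard error), and it lay between -1.25 and -0.94 when any single mouse was left out. These values rest on 280 to 1315 reads per liver. When all 12977 genes were ordered by edgeR's test Gldc was number 3, the value for which it was chosen, and it was number 32 from the lowest log2 fold change upward. Its place by the test lay between number 3 (without Smo-KO 3) and number 14 (without control 1) when any single mouse was left out. With a replicate block in the fit it was number 16.

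Amt, the aminomethyltransferase of the system, was at 47.1, 47.3, 48.3 and 44.6 CPM in control livers and at 42.7, 38.5, 23.9 and 39.6 CPM in Smo-KO livers. All 4 control livers lay within a narrow band, all 4 Smo-KO livers were below it, and Smo-KO 3 was again the lowest. The mean was 46.8 ± 1.56 CPM in control and 36.2 ± 8.36 CPM in Smo-KO livers, a log2 fold change of -0.37 ± 0.15. Without Smo-KO 3 it was -0.22, so 1 liver carried much of the difference.

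Gcsh, the lipoyl-carrying protein on which the other parts act, was at 124.0, 105.9, 124.7 and 121.5 CPM in control livers and at 113.7, 123.8, 124.1 and 131.8 CPM in Smo-KO livers. Dld, the dihydrolipoamide dehydrogenase that is also a subunit of other mitochondrial complexes, was at 117.2, 144.6, 164.1 and 115.9 CPM in control livers and at 121.1, 157.1, 126.6 and 133.8 CPM in Smo-KO livers. The groups overlapped for both genes. The log2 fold changes were 0.05 ± 0.09 for Gcsh and -0.01 ± 0.12 for Dld, and with 1 mouse left out that of Gcsh lay between 0.00 when rounded (without control 2) and 0.09 (without Smo-KO 1), with 0.02 without Smo-KO 4. The sign of the Dld value turned when control 2, control 3, Smo-KO 1 or Smo-KO 3 was left out.

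**Figure D1:**
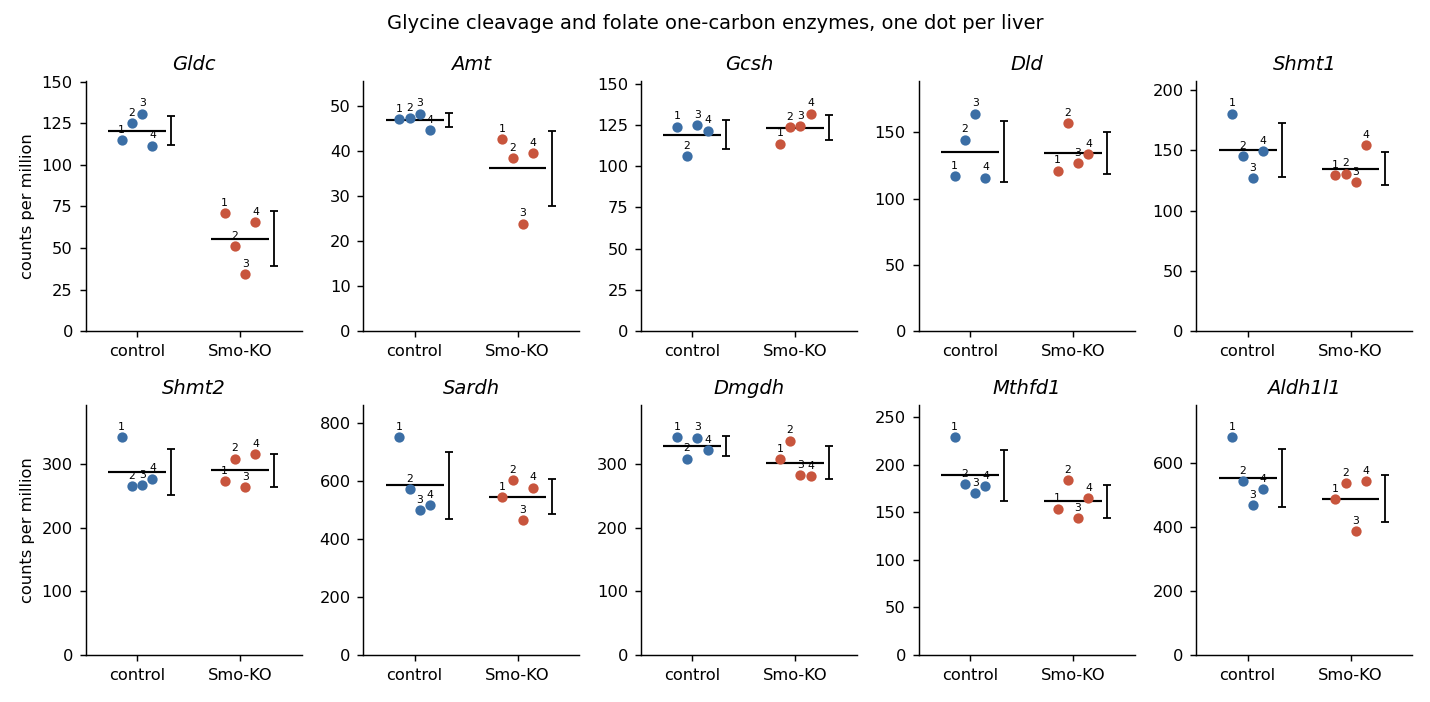
Level of each of the 10 genes in every liver, in CPM on linear axes that start at 0, with 1 dot per liver, the liver's number beside it, the group mean as a line and the SD (n = 4) as a bar at the side. The 4 Smo-KO livers lie below all control livers for Gldc and Amt, and the groups overlap for the other 8 genes.

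Shmt1 and Shmt2, the mainly cytosolic and the mitochondrial enzyme that interconvert serine and glycine, overlapped between the groups. Shmt1 was at 180.3, 144.8, 126.8 and 149.0 CPM in control livers and at 129.5, 130.6, 123.7 and 154.5 CPM in Smo-KO livers, a log2 fold change of -0.16 ± 0.11. Shmt2 was at 341.6, 265.3, 266.3 and 276.7 CPM in control livers and at 273.0, 308.2, 263.4 and 314.8 CPM in Smo-KO livers, a log2 fold change of 0.01 ± 0.10. Control 1 was the highest control liver for both. With control 1 left out, the log2 fold change was 0.11 for Shmt2 and -0.06 for Shmt1, and that of Shmt2 was below 0 without any 1 of the other control livers, Smo-KO 2 or Smo-KO 4.

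Dmgdh and Sardh, the mitochondrial flavoenzymes that turn dimethylglycine from choline breakdown into sarcosine and sarcosine into glycine, passing carbon to tetrahydrofolate, also overlapped between the groups. Dmgdh had a mean of 329 ± 16.3 CPM in control and 303 ± 26.2 CPM in Smo-KO livers, a log2 fold change of -0.12 ± 0.09. Sardh was at 751.1, 571.5, 499.6 and 518.3 CPM in control livers and at 543.5, 602.3, 464.3 and 577.6 CPM in Smo-KO livers. Its log2 fold change of -0.10 ± 0.13 became 0.05 without control 1, the highest liver of all 8.

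Mthfd1, the cytosolic enzyme that interconverts methylene-, methenyl- and formyl-tetrahydrofolate, had a mean of 189 ± 26.9 CPM in control and 162 ± 17.3 CPM in Smo-KO livers, a log2 fold change of -0.22 ± 0.11. Aldh1l1, which oxidizes formyl-tetrahydrofolate to tetrahydrofolate and carbon dioxide, had a mean of 551 ± 90.2 CPM in control and 488 ± 72.3 CPM in Smo-KO livers, a log2 fold change of -0.18 ± 0.13. The ranges of the groups overlapped for both genes, control 1 was the highest and Smo-KO 3 the lowest of the 8 livers. Without control 1 the log2 fold change was -0.12 for Mthfd1 and -0.06 for Aldh1l1.

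Of the 10 genes, 8 had a lower mean and 2 a higher mean in Smo-KO livers, with a median log2 fold change of -0.14, or -0.12 without Gldc, where the median over all genes tested was 0.00 when rounded. Only Gldc and Amt had groups that did not overlap, both with Smo-KO below control. Over all genes tested, 4.34% had groups that did not overlap with Smo-KO lower and 3.03% with Smo-KO higher. No gene, neither these 10 nor any other, passed an adjusted p of 0.05 by edgeR's test (0% of 12977), although 928 genes (7.15%) were lower and 869 (6.7%) higher at an unadjusted p under 0.05. DESeq2 called 84 genes lower (0.647%) and 79 higher (0.609%), with 1 of the 10 genes, Gldc, among those called lower. edgeR's adjusted p of Gldc was under 0.05 without the filter on low counts, without Smo-KO 1 and without Smo-KO 3, so its call depends on these choices. Since the group was chosen on this contrast, nothing is read from these counts.

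The spread among Smo-KO livers also differed between the genes. The coefficient of variation of Gldc was 7.39% among control and 29.8% among Smo-KO livers, and that of Amt 3.34% and 23.1%, where the median gene had 12.1% in either group. For Gcsh it was 7.44% and 6.00%. Without Smo-KO 3, the lowest liver for both Gldc and Amt, it was 16.4% for Gldc and 5.403% for Amt over the other 3 Smo-KO livers. Smo-KO 3 had the lowest level of its group for 7 of the 10 genes, against 26.1% of all genes tested. Relative to the control mean, Smo-KO livers 1 to 4 held 59.1%, 42.6%, 28.3% and 54.5% of Gldc and 67.5%, 46.7%, 50.8% and 52.0% of Smo. The liver with the highest Smo level among the 4 was also the highest in Gldc, while the lowest Smo level, in Smo-KO 2, went with the second lowest Gldc level. With 4 mice this order is a description only.

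Gldc and Amt varied together within the groups. The deviations of the 8 livers from their group means, in log2 CPM, had a Pearson correlation of 0.946 between these genes (Spearman 0.929), given without a test because both were chosen on these livers. Without Smo-KO 3 and Smo-KO 1, the livers farthest from the median in Gldc, the correlation was 0.665 over 6 livers. Gldc and Gcsh had a correlation of -0.17 on the same scale. Over all 9 pairs with Gldc the median was 0.169, and over the 36 pairs without Gldc it was 0.344. The highest value of all pairs belonged to Sardh and Aldh1l1, at 0.956, followed by Sardh and Mthfd1 at 0.955. In these 3 genes control 1 was the highest liver.

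Among all genes tested, Chil1, Ppp1r21, Gask1a, Pacsin2 and Xpnpep1 had the highest Pearson correlations with Gldc in log2 CPM over the 8 livers, between 0.967 and 0.988. Chil1 had a mean of 10.8 CPM in control and 6.31 CPM in Smo-KO livers, and the groups of all 5 did not overlap. A correlation over 8 livers in 2 groups also holds the difference between the groups, on which Gldc was chosen. By deviations from the group means, among genes of at least 5 CPM, the 5 most like Gldc were Sema6a, Adamts9, Ddc, Ube2q1 and Tigd2, with correlations between 0.962 and 0.986. Their groups overlapped. Ddc, the aromatic amino acid decarboxylase, had a mean of 69.7 CPM in control and 37.9 CPM in Smo-KO livers, and Tigd2 15.7 CPM in both. These genes are the highest of 10785 values computed on 8 livers that share their libraries, and no p is given.

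Divided by the length of the longest annotated transcript (RPKM, CPM per kilobase), the levels can be compared between genes. In control livers the order was Aldh1l1 (132 RPKM), Sardh (129), Shmt2 (126), Dmgdh (110), Gcsh (82.5), Mthfd1 (58.2), Dld (53.2), Shmt1 (52.6), Gldc (32.0) and Amt (22.5). The ranges over the 4 control livers overlapped between neighbours among Aldh1l1, Sardh and Shmt2 and among Mthfd1, Dld and Shmt1, and were apart at every other step. In Smo-KO livers Gldc came last, at 14.8 ± 4.39 RPKM and below Amt at 17.4 ± 4.02 RPKM, with overlapping ranges. Neighbours also overlapped there among Shmt2, Sardh, Aldh1l1 and Dmgdh and among Dld, Mthfd1 and Shmt1. Within the glycine cleavage system, Gcsh and Dld had more transcript per length than Gldc and Amt in both groups. The length used matters for 4 of the genes: with the mean length of the protein-coding transcripts, Sardh would be at 367.7, Aldh1l1 at 212.6, Shmt1 at 81.9 and Mthfd1 at 80.7 RPKM in control livers.

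**Figure D2:**
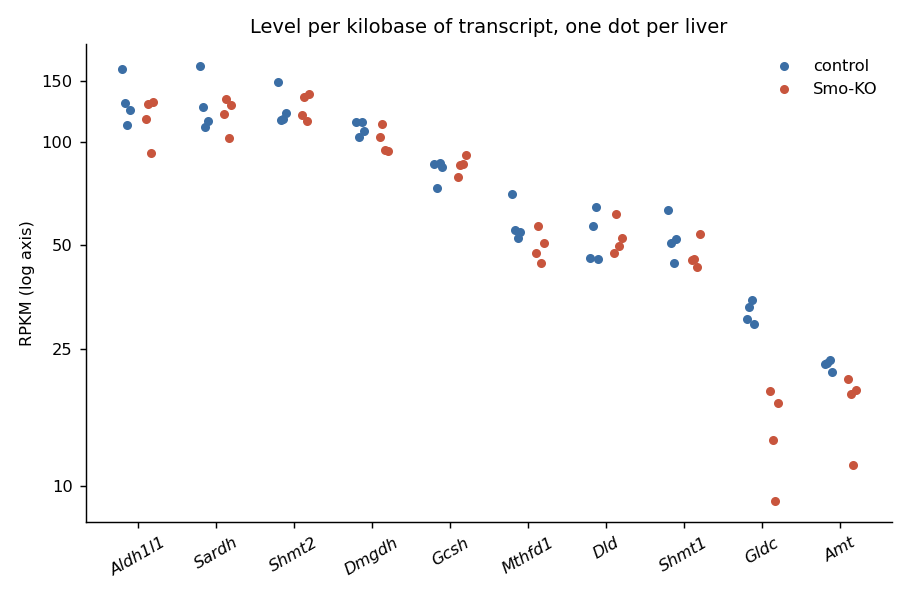
Level of each gene per kilobase of its longest transcript (RPKM, log axis), 1 dot per liver, with the genes ordered by their mean in control livers. Gldc lies between 29.6 and 34.7 RPKM in control livers, above Amt, and between 9.07 and 18.9 RPKM in Smo-KO livers, where its range meets that of Amt.

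The levels of Gldc and its partners can also be set against each other as ratios of RPKM in the same liver, which do not depend on the size of the library. Gldc to Amt was 1.348, 1.461, 1.495 and 1.381 in control livers and 0.921, 0.736, 0.790 and 0.918 in Smo-KO livers. Gldc was thus above Amt in every control liver and below it in every Smo-KO liver. Gldc to Gcsh had a mean of 0.390 ± 0.0473 in control and 0.174 ± 0.0564 in Smo-KO livers. Gldc to Dld had a mean of 0.608 ± 0.0580 and 0.283 ± 0.0989. The groups did not overlap for any of these 3 ratios. Nor did they for Gldc to Shmt2, which is outside the cleavage system, at 0.258 ± 0.0428 and 0.116 ± 0.0342, and all 4 ratios contain Gldc, which was chosen on this contrast. They overlapped for Amt to Gcsh, at 0.274 ± 0.0244 and 0.204 ± 0.0525, and for Shmt1 to Shmt2, at 0.418 ± 0.0252 and 0.372 ± 0.0230. A ratio shows an unequal difference between its genes and does not say that one of them was constant.

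**Figure D3:**
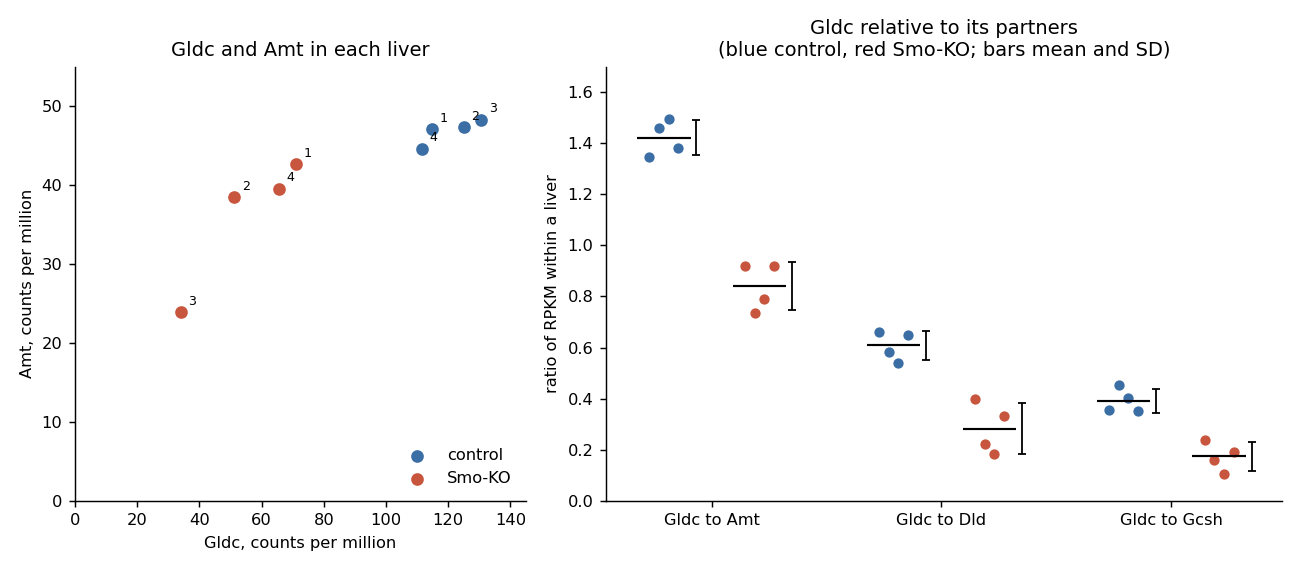
Left, Amt against Gldc in each liver (CPM, linear axes from 0, livers numbered); right, the ratio of Gldc to Amt, Dld and Gcsh in each liver (ratio of RPKM), with mean and SD (n = 4 per group). Gldc to Amt is at or above 1.348 in the control livers and at or below 0.921 in the Smo-KO livers, and Smo-KO 3 is lowest in both Gldc and Amt.

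The other genes of these pathways were taken from 3 lists, and the test was that of edgeR over all 12977 genes, in which none of them passed an adjusted p of 0.05. Of 21 other folate genes, 19 were tested, 6 with a log2 fold change below 0 and 13 with one above 0. The median log2 fold change was 0.04. At an unadjusted p under 0.05, 1 was lower and 1 higher, where 7.15% and 6.7% of all genes were. The lower one was Mthfd2, the mitochondrial methylene-tetrahydrofolate dehydrogenase, at 10.8, 10.4, 20.3 and 14.1 CPM in control livers and 10.4, 6.87, 6.10 and 8.74 CPM in Smo-KO livers. Its groups overlapped, and its log2 fold change of -0.78 ± 0.23 had an adjusted p of 0.186 by edgeR and of 0.0633 by DESeq2. The higher one was Ggh, the hydrolase that trims the glutamate tail of folates, at a mean of 23.1 ± 2.73 CPM in control and 31.0 ± 4.63 CPM in Smo-KO livers (log2 fold change 0.42 ± 0.13, edgeR adjusted p = 0.199). Ftcd, which feeds folate from histidine breakdown, was the most counted gene of the list, at 394 ± 25.6 and 411 ± 30.8 CPM. Folr1, a folate receptor, was the least counted, with at most 4 reads in a liver, and it and Aldh1l2 had too few reads to be tested.

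Of 30 genes of glycine and serine metabolism, 28 were tested, 17 with a lower and 11 with a higher mean in Smo-KO livers and a median log2 fold change of -0.05. At an unadjusted p under 0.05, 1 was lower and 2 were higher, again beside 7.15% and 6.7% of all genes, and the 3 became 5 without Smo-KO 1. Agxt, the peroxisomal aminotransferase that makes glycine from glyoxylate, was at 389.5, 282.1, 290.2 and 267.3 CPM in control livers and at 252.6, 224.6, 160.2 and 256.8 CPM in Smo-KO livers. Its groups did not overlap, and its log2 fold change was -0.46 ± 0.15 (edgeR adjusted p = 0.240). Alas1, which joins glycine with succinyl-CoA in the first step of heme synthesis, was at 406.6, 303.0, 312.6 and 392.8 CPM in control livers and at 399.2, 752.6, 690.4 and 423.4 CPM in Smo-KO livers. Smo-KO 2 and 3 were high and the other Smo-KO livers were near the control range, so the groups overlapped. Its log2 fold change of 0.68 ± 0.19 had an adjusted p of 0.176 by edgeR and of 0.0351 by DESeq2, the only gene of the 3 lists below 0.05 by the latter. Glyat, which conjugates acyl groups to glycine, had a mean of 214 ± 25.5 CPM in control and 255 ± 25.4 CPM in Smo-KO livers (log2 fold change 0.25 ± 0.11, edgeR adjusted p = 0.331), and its unadjusted p was no longer under 0.05 without control 2, Smo-KO 2, Smo-KO 3 or Smo-KO 4.

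The 3 enzymes of serine synthesis (Phgdh, Psat1 and Psph) all had a lower mean in Smo-KO livers, and none had an unadjusted p under 0.05. The 5 listed genes around the route from choline to sarcosine (Chdh, Aldh7a1, Bhmt, Bhmt2 and Pipox, the last a peroxisomal oxidase that uses sarcosine) also all had a lower mean, with log2 fold changes between -0.22 and -0.01 and none at an unadjusted p under 0.05. The other parts of the list did not all go this way. The 2 transport genes were higher, glycine use had 3 lower and 4 higher. The serine, threonine and glyoxylate routes had 6 lower and 5 higher. Of all 12977 genes tested, 6507 had a log2 fold change below 0. Bhmt, which makes dimethylglycine from betaine, was the most counted gene of the list, at 2076 ± 241 and 1911 ± 333 CPM. Dao, the D-amino acid oxidase, was the least counted, with at most 3 reads in a liver, and it and Tdh were not tested.

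Dld and the use of a lipoyl arm are shared with the dehydrogenases of pyruvate, 2-oxoglutarate, branched-chain ketoacids and 2-oxoadipate. Of the genes of these complexes and of lipoate attachment, 13 of 13 were tested. A lower mean in Smo-KO livers was seen for 9 and a higher mean for 4, with a median log2 fold change of -0.09. At an unadjusted p under 0.05, 2 were lower and 0 higher, where 7.15% and 6.7% of all genes were. Pdhb, a subunit of pyruvate dehydrogenase, was at 113.0, 110.8, 117.2 and 108.6 CPM in control livers and at 97.4, 101.1, 85.1 and 96.6 CPM in Smo-KO livers, without overlap (log2 fold change -0.24 ± 0.08, edgeR adjusted p = 0.244). Pdha1, the partner subunit of Pdhb, had means of 50.1 ± 5.44 and 41.6 ± 6.84 CPM with overlapping groups (log2 fold change -0.27 ± 0.12, edgeR adjusted p = 0.356). Its unadjusted p was no longer under 0.05, and the count fell to 1, with RLE size factors, with DESeq2 and with a minimum of 10 counts in each liver. It was also no longer under 0.05 with any mouse but control 1 or Smo-KO 2 left out. Bckdha, of the branched-chain complex, was the most counted at 423 ± 62.7 and 457 ± 17.0 CPM. Lipt1, a lipoyl transferase, was the least counted at 7.64 ± 0.573 and 6.57 ± 0.781 CPM.

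**Figure D4:**
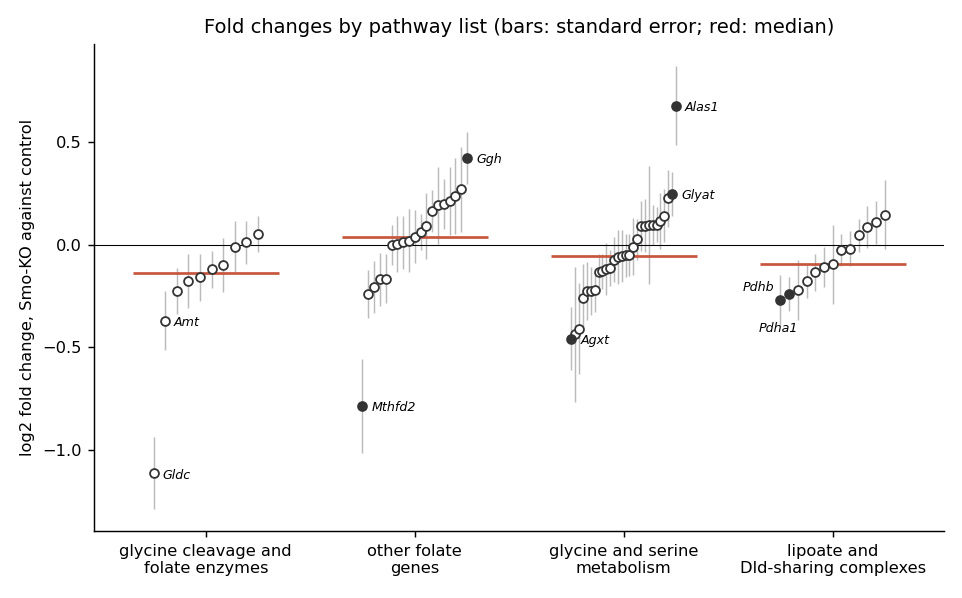
Log2 fold change of Smo-KO against control for the tested genes of the 10-gene group and of the 3 pathway lists (1 dot per gene, bars are standard errors, red lines are list medians). Filled dots have an unadjusted p under 0.05 by edgeR's test (not marked for the 10 chosen genes). Gldc, at -1.11, was chosen because it stood out in this contrast. It lies below every gene of the 3 lists, of which Mthfd2 at -0.78 is the lowest.

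Markers of the cell types that liver RNA can hold were summed in each liver. The 8 hepatocyte markers summed to 32416, 28250, 29746 and 30867 CPM in control livers and 29912, 29285, 28325 and 27694 CPM in Smo-KO livers, with Alb as the most counted (exact permutation test, two-sided p = 0.229, adjusted over 9 lists 0.932). Periportal markers, 8 listed and 7 tested, summed to 2419 ± 664 and 2220 ± 356 CPM (most counted Pck1), and the 8 pericentral markers to 6777 ± 1351 and 7251 ± 522 CPM (most counted Cyp2e1), with exact permutation p = 0.657 and 0.571. Ass1, of the periportal list, was listed at 0 in 7 livers and at 1 read in the other, so its own level cannot be read from these files. The sums overlapped between the groups for these lists, but they follow their most counted genes. No single marker of these lists passed an adjusted p of 0.05 by either tool, and unadjusted counts are read against the 7.15% of all genes that were lower and the 6.7% that were higher. Of the 8 hepatocyte markers, 6 had a lower mean in Smo-KO livers, and 1, Cps1 of the urea cycle, had an unadjusted p under 0.05 by edgeR's test. Cps1 was at 954.0, 845.6, 922.8 and 951.7 CPM in control livers and at 753.7, 827.5, 602.8 and 746.3 CPM in Smo-KO livers, without overlap (log2 fold change -0.33 ± 0.10, edgeR adjusted p = 0.218). Of the 8 pericentral markers, 5 had a higher and 3 a lower mean. Their log2 fold changes had a median of 0.05 and a lowest value of -0.32. Of the 5 with a higher mean, 2, Slc1a2 and Rhbg, had an unadjusted p under 0.05. Slc1a2, a glutamate transporter, was at 141.9, 135.3, 72.7 and 136.5 CPM in control livers and at 154.3, 223.5, 187.6 and 146.4 CPM in Smo-KO livers, without overlap (log2 fold change 0.55 ± 0.19, edgeR adjusted p = 0.247). Of the 7 periportal markers tested, 5 had a lower mean and 0 had an unadjusted p under 0.05. The part of hepatocyte content or zonation in the Gldc values was not tested.

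The T and NK cell markers were 7 in the list, with 5 of them tested. Like all marker lists here, they were chosen with earlier results of these data known, so their values are a description. They summed to 44.57, 48.97, 38.46 and 56.18 CPM in control livers and to 20.00, 18.11, 30.85 and 30.60 CPM in Smo-KO livers, with no overlap (exact permutation test, two-sided p = 0.0286, the smallest that 4 against 4 mice allow, adjusted over 9 lists 0.257). Their most counted gene was Nkg7, at a mean of 14.5 and 7.59 CPM with overlapping groups, and no marker was at 0 in all livers. Of the 5 tested markers, 3 had groups that did not overlap with Smo-KO lower, beside 4.34% of all genes. All 5 tested markers were lower at an unadjusted p under 0.05 by edgeR's test, as were 7.15% of all genes, and DESeq2 called 3 of the 5 lower at an adjusted p under 0.05 (Cd3e, Nkg7 and Il2rb), as it did 0.647% of all genes. Their part in the Gldc values was not tested. Macrophage markers (7, led by Cd5l), stellate cell and fibroblast markers (7, led by Col3a1), endothelial markers (6, led by Clec4g), cholangiocyte markers (5, led by Sox9) and B cell markers (4, led by Cd79b) had sums that overlapped between the groups, with exact permutation p between 0.343 and 1. At an unadjusted p under 0.05 by edgeR's test, 1 of 7 stellate cell and fibroblast markers (Col1a1) was lower. So was 1 of 6 endothelial markers (Pecam1), beside 7.15% of all genes. Of the stellate cell and fibroblast markers, 3 had a lower and 4 a higher mean, with a median log2 fold change of 0.07. All 6 endothelial markers had a lower mean.

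Other genes share exon sequence with some of the 10, which matters because it is not stated whether strand was used in the counting. Shmt1 shares 184 bases of exon with Smcr8 on the other strand, which had a mean of 491 reads in control and 452 reads in Smo-KO livers. Shmt2 shares 32 bases with Ndufa4l2, at 34.5 and 31.8 reads. Sardh, Dmgdh, Mthfd1 and Aldh1l1 overlap noncoding transcripts. Gldc, Amt, Gcsh and Dld share no exon base with another annotated gene. In GRCm38, Dld lies at chr12:31331277-31351453, Shmt1 at chr11:60788104-60811718, Shmt2 at chr10:127517123-127522444 and Sardh at chr2:27188393-27248337, all on the minus strand. Dmgdh lies at chr13:93674433-93752833, Mthfd1 at chr12:76255298-76319803 and Aldh1l1 at chr6:90486427-90600203, all on the plus strand.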

How the data were processed

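The authors deposited 1 list of raw read counts per gene symbol for each liver, without normalization. The submitters' processing notes name fastp, STAR 2.7.5, featureCounts 2.0.1 and GRCm38, while their closing entries are those of htseq-count. The annotation and the use of strand are not given in the sources used here. Entries that name no gene were left out. Reads on no feature were 8.33% ± 0.743 in control and 9.23% ± 0.330 in Smo-KO livers (SD, n = 4, two-sided exact permutation test p = 0.114), and ambiguous reads 2.55% and 2.51%. No library was a copy of another of its group, the pairs checked: the counts differed by a chi-square of at least 7.76 per degree of freedom (genes with 10 reads or more in the pair).

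With edgeR 4.0.16 in R 4.3.3, genes were filtered (filterByExpr), libraries scaled (TMM) and groups compared by the quasi-likelihood F test without covariates, with p-values of all 12977 genes adjusted together (Benjamini-Hochberg). Standard errors are those implied by the F statistic, and CPM used TMM library sizes. Log2 CPM for correlations used a prior count of 2. DESeq2 1.42.0 was an alternative test. Single values were compared by exact permutation over the 70 assignments of mice. RPKM used GENCODE M21 transcript lengths, and promoters came from RefSeq (GRCm38.p6). The fits were tested on simulated data. At this depth 3 reads correspond to 0.297 to 0.366 CPM, and depth describes counting error only, since no molecular identifiers are given.

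The 10 genes, the pathway and marker lists and the tests were chosen with earlier results of these data known. Named were the 10 genes, Smo, the list genes at an unadjusted p under 0.05 (at most 8 per list), the most and least counted gene of each list, the genes most like Gldc and the most counted marker of each cell type. Genes named outside this rule (Aldh1l2, Tdh, Phgdh, Psat1, Psph, Ass1, Cps1, Slc1a2, Rhbg, Col1a1, Pecam1, Chdh, Aldh7a1, Bhmt2, Pipox, Cd3e, Il2rb, and Smcr8 and Ndufa4l2 for shared exons) were named after their values were seen. Alternatives were other size factors, DESeq2, other filters, a replicate block, each mouse left out and another transcript length. The coefficients of variation without Smo-KO 3 were added after seeing the data. Each mouse is a separate liver, so errors are between mice.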

Additional observations from a re-analysis of the deposited data

Results flagged for a closer look

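In 40 groups of 4 livers (the 10 genes, Smo and the summed markers), 1 liver lay far from the other 3 in 4 groups by Dixon's criterion, where chance gives about 2. Shmt2 was at 341.6 CPM in control 1 and between 265.3 and 276.7 CPM in the other control livers. Mthfd1 was at 228.6 CPM in control 1 and between 169.8 and 179.5 CPM in the others. Both enzymes thus stood high in the same liver, which was also the highest control liver for Sardh and Aldh1l1. The summed pericentral hepatocyte markers reached 8028 CPM in Smo-KO 2, against 6941 to 7083 CPM in the other Smo-KO livers. The summed B cell markers were at 7.34 CPM in control 2, against 9.19 to 9.30 CPM in the other control livers.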

How the results depend on the processing

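The log2 fold changes of Gldc and Amt kept their direction under all 13 alternatives (Gldc -1.25 to -0.94, Amt -0.45 to -0.22), whereas that of Dld changed sign under 5, that of Shmt2 under 5 and that of Sardh under 1. At an adjusted p under 0.05, edgeR called 0 genes. The count was 163 with DESeq2, 61 without a filter on low counts and 8 with a replicate block. With 1 mouse left out it ranged from 0 to 78 (5 without control 1, 78 without Smo-KO 1 and 4 without Smo-KO 3). Genes of glycine and serine metabolism with an unadjusted p under 0.05 numbered 3, and 2 to 5 with 1 mouse left out (5 without Smo-KO 1). Those of the lipoate and Dld-sharing complexes numbered 2, and 1 with RLE size factors, with DESeq2 and with a minimum of 10 counts in each liver, and 1 to 3 with 1 mouse left out. The other folate genes numbered 2 to 3. The cause was not tested. Genes with an unadjusted p under 0.05 numbered 1244 to 2332 with 1 mouse left out. The mean protein-coding transcript length moved the control levels of Shmt1 to 81.9, Sardh to 367.7, Mthfd1 to 80.7 and Aldh1l1 to 212.6 RPKM. The replicate numbers were not taken as pairs: same-numbered livers had correlations of deviations of 0.104, 0.187, 0.0611 and 0.113, 1 of them under 0.1, against -0.205 to 0.157 for other pairs, and not every liver was most like its own number. All 4 are positive, so a shared origin of same-numbered livers was neither stated nor shown to be absent. With the replicate block the log2 fold change of Gldc was -1.15, and 2115 genes had an unadjusted p under 0.05, among them 3 other folate genes, 3 of glycine and serine metabolism and 2 of the lipoate and Dld-sharing complexes. Depth limits genes near 3 reads, such as Folr1 and Dao, and none of the 10 genes is near that level.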
